A study of Mus musculus with 21 samples.

Results

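The genes described here are 50 imprinted genes of the mouse, of 33861 genes in the deposited count table. They were chosen by name from the known imprinted clusters: 10 of the Kcnq1 cluster, H19 and Igf2, 5 of the Dlk1-Meg3 cluster, 3 of the Peg3 cluster, 6 of the Snrpn cluster, 4 of the Peg10 cluster, 3 of the Igf2r cluster and 17 at single loci. All 50 were found in the table. Of them 24 are known to be read from the paternal allele, 24 from the maternal allele, and Grb10 and Gnas from different alleles by tissue or promoter. For 15 of the 50 the imprint is listed as restricted to some tissues, so the allele named need not be the only one read in these samples. The measured RNA was followed in 2 lines of formative stem (FS) cells, in epiblast stem cells (EpiSCs) kept in the media AF and AFX, and in single mouse epiblasts.

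FS1 and FS2 are 2 lines labelled as formative stem cells and grown in A3XR medium, sampled at the numbers p10, p11 and p18 for FS1 and p12, p13 and p16 for FS2, read here as passages. The AF and AFX samples both carry the line name E14, are labelled as EpiSCs, and were each taken at p14, p15 and p16. Each cultured sample was RNA of 1000 cells. The epiblasts, the embryonic tissue that these lines model, were collected singly from 3 embryos each of the groups titled E5.0, E5.5 and E6.0, and the last group is given as 6.5 days in another label. Strain, genotype, sex and the makeup of the media are not given in the sources used here. Passages of a line are not independent derivations, so p-values between cultures measure the spread between passages of the same cells, and any difference between FS and EpiSC samples is also one between lines.

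Imprinted genes are read mainly or only from the copy inherited from one parent. In each cluster DNA methylation laid down in the egg or sperm marks an imprinting control region, and that mark is kept through the wave of demethylation in the early embryo by ZFP57, ZFP445 and TRIM28 together with the maintenance methyltransferase DNMT1. Long non-coding RNAs such as Kcnq1ot1 and Airn silence neighbouring genes in cis on the allele that transcribes them, and a protein-coding gene can change from one active copy to both or to none when the mark is lost or gained. Imprints are known to be unstable in cultured pluripotent cells. Reads were not assigned to alleles here, so each value is the total RNA of both copies, and a change in the share of the 2 alleles was not measured. In bulk RNA, fewer cells with a transcript and less RNA per cell cannot be told apart.

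Libraries held 5827093 to 15916800 counts, and levels are CPM, a gene's counts scaled to a library total of 1000000. The level of 3 counts lies between 0.188 CPM in the deepest and 0.515 CPM in the shallowest library. Most members had RNA in every group: between 38 and 44 of the 50 had a group mean of at least 1 CPM. The 10 markers of epiblast and primed pluripotency were all present in every group, with a summed level of 1907 to 2763 CPM in AF and 2989 CPM or more in every other sample. Summed visceral endoderm markers (11 genes) stood at 282 to 803 CPM in the E5.0 epiblasts, 42.7 to 79.5 at E5.5, 23.3 to 33.1 at E6.0 and 65.6 to 99.5 in AF, and at 26.7 or less in the other cultures. Summed feeder fibroblast markers (10 genes) stood at 251 to 299 CPM in AF, and at 48.2 to 82.3 in AFX, 31.8 to 57.3 in FS1, 36.5 to 69.3 in FS2 and 9.9 to 24.6 in epiblasts.

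**Figure D1:**
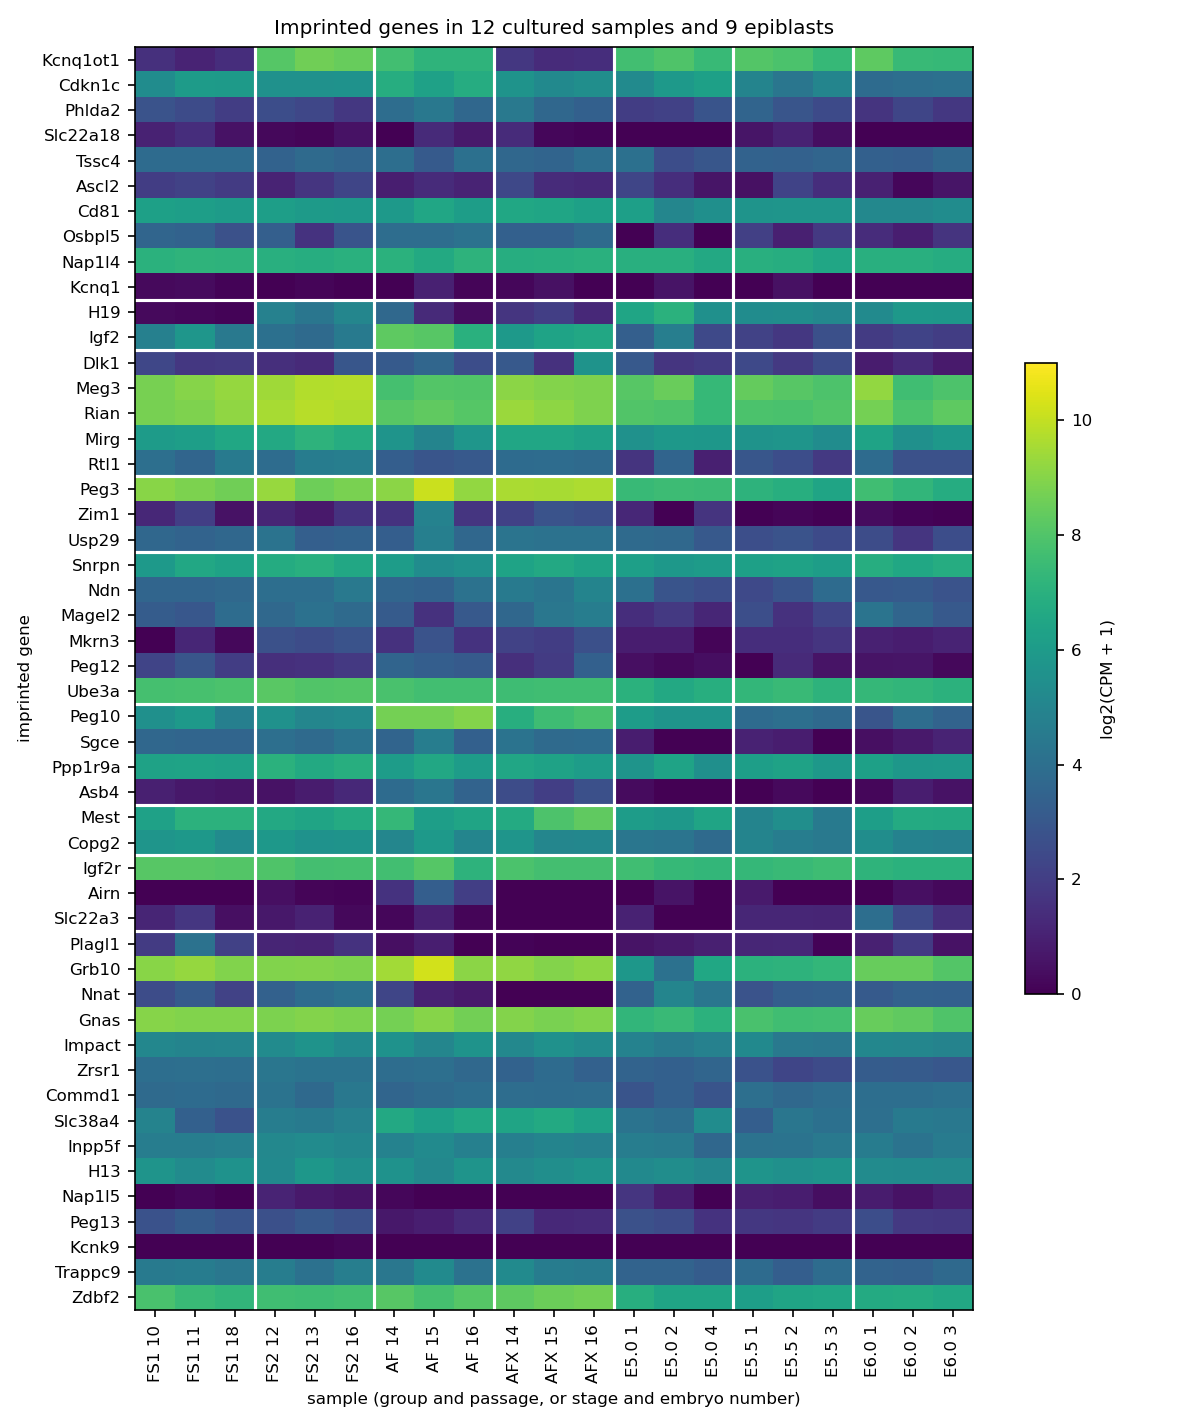
Level of each of the 50 imprinted genes (vertical axis, by cluster) in each of the 21 samples (horizontal axis, by group), as log2(CPM + 1) from 0 (dark) upwards. Kcnq1ot1 is dark in the 3 FS1 and the 3 AFX samples and bright in all others, H19 is dark in FS1, and Nnat is dark in AFX.

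The largest differences were of genes that were on in some cultures and nearly absent in others. Kcnq1ot1, the paternally read RNA that silences the Kcnq1 cluster, was nearly absent in FS1 and AFX and high in FS2, AF and every epiblast. Kcnq1ot1 measured 1.86, 1.16 and 1.68 CPM in FS1, 276, 390.4 and 346 in FS2, 203, 141 and 139.5 in AF and 2.43, 1.56 and 1.73 in AFX. In the epiblasts Kcnq1ot1 ranged from 166 to 306 CPM, with a median of 204. The low and high groups were far apart, with no sample between 2.43 and 139.5 CPM. In edgeR's quasi-likelihood test with Benjamini-Hochberg adjustment over all genes tested, Kcnq1ot1 was higher in FS2 than in FS1 (log2 fold change 7.69 ± 0.25 SE, adjusted p 3.28e-11) and lower in AFX than in AF (-6.36 ± 0.23, adjusted p 4.06e-10). Against the epiblasts it was lower in FS1 (-7.32 ± 0.30, adjusted p 6.49e-13) and AFX (-6.96 ± 0.29, adjusted p 3.13e-13), and its value in FS2 was 0.39 ± 0.17 (adjusted p 0.0604). AF was slightly lower than the epiblasts (-0.60 ± 0.18, adjusted p 0.00923), a call lost without AF p15 (-0.51, adjusted p 0.0783) or AF p16 (-0.50, adjusted p 0.0648). Because 1 FS line was on and the other off, the contrast of both FS lines with AF (-2.88 ± 0.16, adjusted p 1.64e-08) or AFX (3.49 ± 0.25, adjusted p 3.16e-07) describes neither line. With both FS lines in 1 group the first became -0.02, adjusted p 0.994, and the second 6.35, adjusted p 0.136.

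H19, a maternally read non-coding RNA, was also nearly absent in FS1. H19 measured 0.218, 0.129 and 0.0884 CPM in FS1, 27.4, 18.9 and 32.3 in FS2, 12.1, 1.46 and 0.292 in AF and 2.29, 3.12 and 1.38 in AFX. In the epiblasts H19 ranged from 34.2 to 131 CPM, with a median of 44.3. Over the 3 FS1 libraries H19 had 4 counts in all. FS2 exceeded FS1 by a ratio of 194 (95% counting interval 75.7 to 715), and the epiblasts exceeded FS1 by 387 (95% counting interval 151 to 1421), intervals that cover counting error only. The test between the FS lines gave 7.38 ± 1.24, adjusted p 0.00681. The AF passages spread widely, with p14 well above the other 2. H19 was lower than in the epiblasts in AF (-3.87 ± 0.67, adjusted p 1.92e-04, and -6.13 without AF p14 and -3.28 without AF p16) and in AFX (-4.84 ± 0.72, adjusted p 5.20e-05). In FS2 the same comparison gave -1.34 ± 0.53, adjusted p 0.0473, but the call was lost in 10 of the 12 fits that left out 1 library, those without E5.0 embryo 1, E5.0 embryo 2, E5.5 embryo 1, E5.5 embryo 2, E5.5 embryo 3, E6.0 embryo 2, E6.0 embryo 3, FS2 p12, FS2 p13 and FS2 p16, with an adjusted p of up to 0.168.

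Nnat, which encodes neuronatin and is read from the paternal copy inside an intron of Blcap, was listed at 0 in all 3 AFX samples. Nnat measured 4.81, 7.61 and 3.45 CPM in FS1, 9.75, 13.9 and 16.7 in FS2, 3.86, 1.0 and 0.681 in AF and 0, 0 and 0 in AFX. In the epiblasts Nnat ranged from 6.1 to 30.7 CPM, with a median of 9.51. AFX lay below every other sample of the series. Taking 3 counts per AFX library as the floor, Nnat was at least 6.42-fold higher in AF, 18.4-fold in FS1, 46.8-fold in FS2 and 42.7-fold in the epiblasts than in AFX. The bound for AF was 2.93-fold without AF p14. Each comparison passed the test (adjusted p 0.0042 against AF, 1.20e-04 for the FS lines as 1 contrast and 7.54e-08 against the epiblasts). AF was low as well, below the epiblasts (-2.87 ± 0.48, adjusted p 5.90e-05, and -3.91 without AF p14) and below FS (2.16 ± 0.51, adjusted p 0.00878 for FS vs AF, and 3.21 without AF p14). FS1 was lower than the epiblasts (-1.37 ± 0.42, adjusted p 0.0106), a call lost without FS1 p18 (-1.13, adjusted p 0.0701). Its host Blcap averaged 22.2 CPM in AFX and 22.6 in AF, and had no call between them (-0.04 ± 0.20, adjusted p 0.944).

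Airn, the paternally read antisense RNA of the Igf2r cluster, was found above a few counts in AF only. Airn measured 0, 0 and 0 CPM in FS1, 0.352, 0.116 and 0.0628 in FS2, 2.06, 8.67 and 3.11 in AF and 0, 0 and 0 in AFX. In the epiblasts Airn ranged from 0 to 0.736 CPM, with a median of 0. Every AF sample was above every other sample. Against a floor of 3 counts per library it was at least 16-fold higher in AF than in AFX, or 8.99-fold without AF p15 (adjusted p 0.00157 with all libraries), and it was also higher in AF than in FS (adjusted p 1.64e-04) and the epiblasts (adjusted p 3.25e-04), with its highest level at p15 and each call kept without that library. Airn passed the filter on low counts only through AF, the group where it is high, so these p-values add nothing to the levels. Igf2r, the receptor that binds and clears IGF2, did not pass the test between AFX and AF (0.09 ± 0.18, adjusted p 0.825), and Airn overlaps Igf2r on the opposite strand, with 0 exon bases in common in the annotation.

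**Figure D2:**
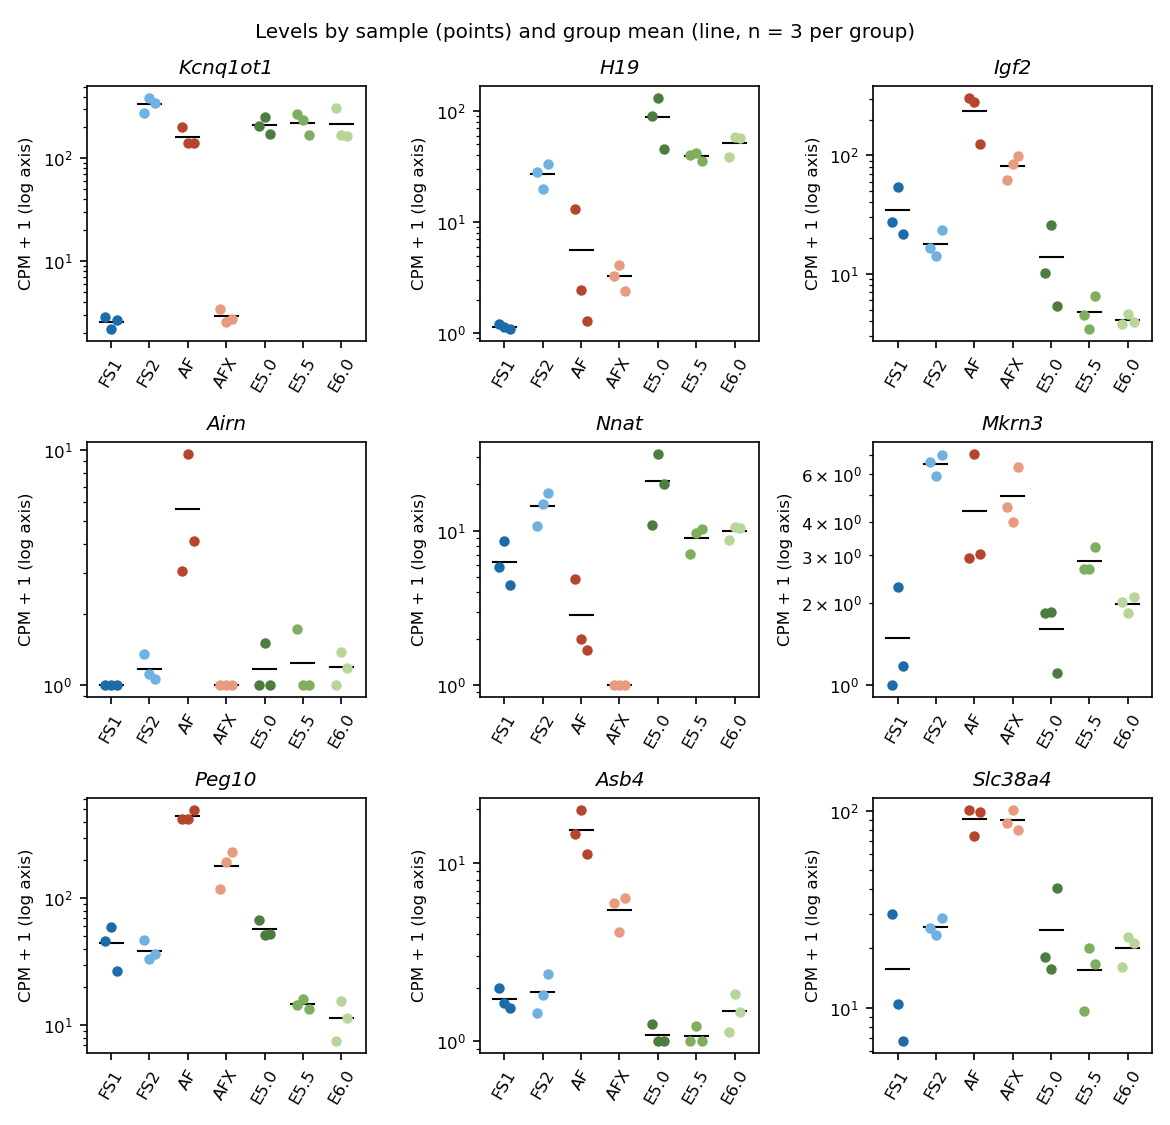
CPM + 1 on a log axis for 9 imprinted genes, with 1 point per sample and a line at the mean of each group (n = 3 per group). Kcnq1ot1 lies at 2.43 CPM or less in FS1 and AFX, Nnat lies at 0 in AFX, and Igf2, Peg10, Asb4 and Slc38a4 are highest in AF or AFX.

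The start regions of these switched RNAs are shown because 2 of them, those of Kcnq1ot1 and Airn, lie in or by a known imprinting control region, where DNA methylation at CG dinucleotides governs whether the RNA is made. RefSeq promoter windows (GRCm38.p6, 250 bases before to 50 after the start) matched 39 of the 50 members, in 60 windows. H19 was not among them. The sequences run 5′ to 3′ on the strand of the gene, with every CG in capitals: 9 in that of Kcnq1ot1 (chr7:143296498-143296797, minus strand), 3 in that of Airn (chr17:12741061-12741360, plus strand) and 17 in that of Nnat (chr2:157559828-157560127, plus strand).
Kcnq1ot1: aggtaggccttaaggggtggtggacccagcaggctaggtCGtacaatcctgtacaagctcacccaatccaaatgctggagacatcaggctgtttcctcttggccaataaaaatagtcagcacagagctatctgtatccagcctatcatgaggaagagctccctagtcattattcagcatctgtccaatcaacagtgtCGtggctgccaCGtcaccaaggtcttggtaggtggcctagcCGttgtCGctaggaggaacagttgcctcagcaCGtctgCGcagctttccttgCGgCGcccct
Airn: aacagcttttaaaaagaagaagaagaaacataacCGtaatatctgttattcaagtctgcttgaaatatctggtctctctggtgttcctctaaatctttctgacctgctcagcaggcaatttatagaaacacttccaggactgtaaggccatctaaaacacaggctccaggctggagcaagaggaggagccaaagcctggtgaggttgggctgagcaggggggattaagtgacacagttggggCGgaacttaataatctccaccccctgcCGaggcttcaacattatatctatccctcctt
Nnat: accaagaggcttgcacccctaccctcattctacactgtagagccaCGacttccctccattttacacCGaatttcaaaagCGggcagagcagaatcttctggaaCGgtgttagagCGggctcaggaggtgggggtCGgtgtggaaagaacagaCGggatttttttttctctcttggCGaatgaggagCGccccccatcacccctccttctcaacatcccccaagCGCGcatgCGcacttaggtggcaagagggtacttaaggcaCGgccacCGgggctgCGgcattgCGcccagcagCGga
The 60 member windows held a median of 14.5 CG dinucleotides and all 32851 windows used a median of 7. The hexamer TGCCGC, which ZFP57 binds when it is methylated, was searched on both strands and occurred in 14 of the 60 windows (23.3%), at 13 members, and in 11.6% of all windows. It was in the window of Nnat and in those of Kcnq1ot1 and Airn the letters did not occur. The core motif of YY1, GCCATNTT, searched likewise, was in 3 of the 60 (5%), those of Mkrn3, Slc38a4 and Ube3a, and in 6.05% of all windows. A match describes the letters only, and methylation was not measured.

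Between the FS lines, which shared a medium, 5 of 47 members tested passed the threshold and all 5 were higher in FS2, with 3.85% of all genes tested called and 2.65% called higher. The members' median log2 fold change was 0.06, and that of all genes -0.02. Kcnq1ot1, H19 and Rian kept their calls in every fit that left out 1 of the libraries, and Meg3 and Mkrn3 did not. Rian, a maternally read host of small nucleolar RNAs, had a log2 fold change of 0.73 ± 0.13, adjusted p 0.00562. Meg3, the non-coding RNA at the head of the same transcribed stretch, gave 0.60 ± 0.14, adjusted p 0.0246 and lost its call without any 1 of FS1 p10, FS1 p11, FS2 p13 and FS2 p16 (log2 0.47 to 0.62, adjusted p 0.0883 to 0.109). Mkrn3, which encodes a makorin zinc finger protein, gave 3.57 ± 0.76, adjusted p 0.0168 and lost its call without FS1 p18 (3.12, adjusted p 0.0739) or FS2 p16 (3.49, adjusted p 0.0542). Without FS1 p11 the Mkrn3 value was 5.66, and without FS1 p10 it was 2.98. Mkrn3 measured 0, 1.29 and 0.177 CPM in FS1, 5.62, 4.88 and 6.03 in FS2, 1.93, 6.11 and 2.04 in AF and 3.51, 2.99 and 5.35 in AFX, so each FS2 sample was above each FS1 sample. The lines also differed in X and Y genes: Xist averaged 556 CPM in FS1 and 0.625 in FS2, while Ddx3y, on the Y, averaged 0.231 and 94.3. Line, passage and these genes differ together and cannot be told apart as sources of a difference.

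Between the 2 EpiSC cultures, 13 of 47 members passed, 6 of them higher and 7 lower in AFX than in AF, with 11.6% of all genes called, 5.86% higher and 5.72% lower. The members' median was -0.03 and that of all genes 0.01. Higher in AFX were Meg3, Rian and Mirg of the Dlk1-Meg3 cluster and Snrpn, Ndn and Magel2 of the Snrpn cluster. Lower in AFX were Kcnq1ot1, Cdkn1c, Igf2, Peg10, Asb4, Airn and Nnat. The call was lost for Igf2 without any 1 of AF p14, AF p15, AFX p14, AFX p15 and AFX p16 (log2 -1.73 to -1.35, adjusted p 0.0502 to 0.12), for Magel2 without AFX p15 (1.65, adjusted p 0.062) or AFX p16 (1.42, adjusted p 0.0703), for Ndn without any 1 of AF p14, AF p15 and AFX p16 (log2 0.64 to 0.80, adjusted p 0.0579 to 0.103) and for Snrpn without any 1 of AF p15, AF p16 and AFX p15 (log2 0.63 to 0.70, adjusted p 0.0745 to 0.0877). The other 9 were called in each of the 6 fits that left out an AF or AFX library. Summed visceral endoderm and feeder fibroblast markers were also lower in AFX than in AF, at 13.8 to 26.7 against 65.6 to 99.5 CPM and 48.2 to 82.3 against 251 to 299 CPM. Of the 9 feeder fibroblast markers tested 5 were called lower and 1 higher, and of the 7 extraembryonic ectoderm markers 3 were lower and 0 higher. The part of these lists in the members' differences was not tested. The 2 cultures also differed in Kdm5d, a gene of the Y, which averaged 18.8 CPM in AF and 0.11 in AFX, while Ddx3y averaged 75.8 and 67.2 and Uty 37.8 and 43. Medium and other differences between the cultures cannot be told apart.

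**Figure D3:**
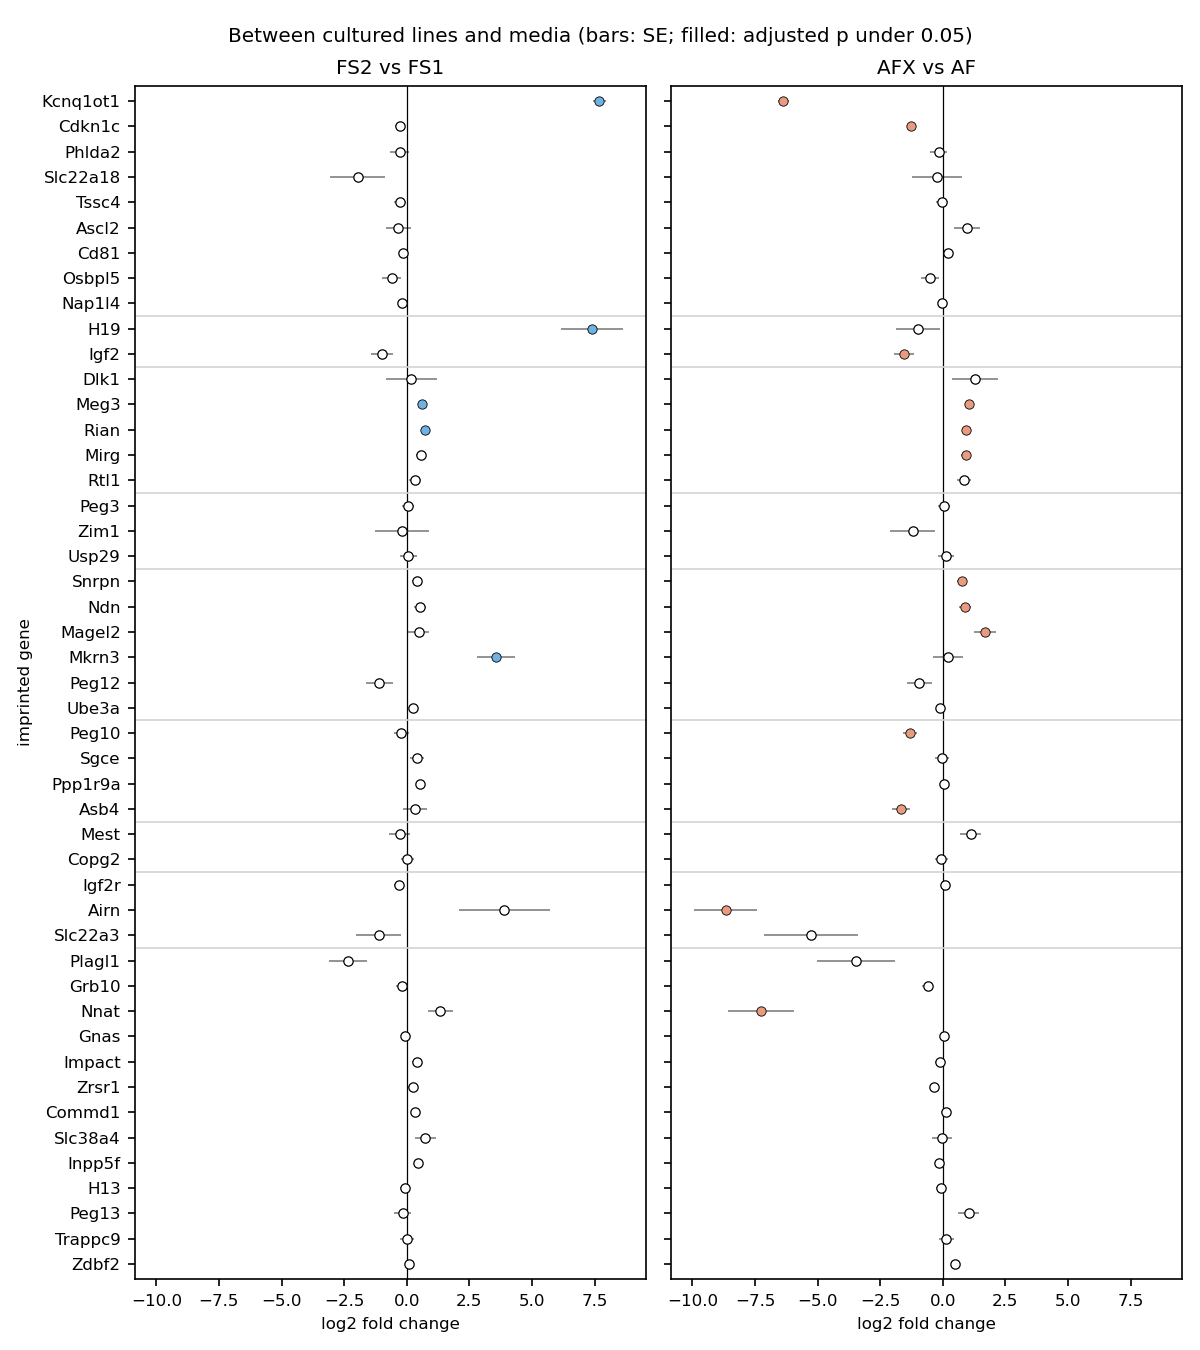
Log2 fold change (horizontal axis) with its SE of each member tested (vertical axis, by cluster), FS2 against FS1 on the left and AFX against AF on the right, with filled points for an adjusted p under 0.05. Kcnq1ot1 stands at 7.69 on the left and at -6.36 on the right, and 42 of 47 members on the left and 34 of 47 on the right are open.

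The FS lines as 1 contrast differed from AF in 22 of 47 members, with 8 higher and 14 lower in FS (23.6% of all genes were called), and from AFX in 16 of 47, with 5 higher and 11 lower (12.9% of all genes). Both comparisons use the same FS samples. Of these calls 18 of the 22 and 9 of the 16 were made in every fit without 1 library. In FS vs AF the cell type markers called were all lower in FS: 4 of the 4 visceral endoderm, 7 of the 7 extraembryonic ectoderm and 6 of the 9 feeder fibroblast markers tested. In FS vs AFX 1 of 4, 3 of 7 and 2 of 9 were lower and 0 higher, and their part in the members' differences was not tested. The FS contrast is the mean of the 2 line means, so it is given below beside the values of each line.

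Against the epiblasts, taken as the mean of the 3 stage means, 27 of 47 members passed in FS1, 26 of 47 in FS2, 31 of 47 in AF and 32 of 47 in AFX. The shares of all genes called were 47.4%, 50.3%, 49.5% and 49%. Most of the members called were higher in the cultures: 24 against 3 lower in FS1, 25 against 1 in FS2, 25 against 6 in AF and 27 against 5 in AFX. In the same comparisons 7, 4, 8 and 9 of the 9 feeder fibroblast markers tested were higher and 0 lower, and 8, 9, 7 and 8 of the 10 visceral endoderm markers tested were lower, with 3 higher in AF. Of the 8 extraembryonic ectoderm markers tested, 3 were lower in FS1, 4 were lower in FS2, 5 were higher in AF, and in AFX 2 were higher and 1 lower. The part of these lists in the members' levels was not tested. Over all genes, 26.2% were higher and 21.2% lower in FS1, and the other cultures were similar (28.3% and 22%, 27.5% and 21.9%, 27.3% and 21.7%). The members' median log2 fold change was 0.65, 0.66, 0.50 and 0.72 in FS1, FS2, AF and AFX, and that of all genes 0.07, 0.08, 0.08 and 0.08. The 4 comparisons share the same epiblasts and are therefore not independent. Ddx3y measured 51.8 CPM in E5.0 embryo 2, 59.5 and 51.3 in E5.5 embryos 1 and 2 and 74.7 in E6.0 embryo 1. It was at 0.554 or less in the other embryos, so each stage held embryos with and without it. Leaving out 1 library at a time, 18, 19, 22 and 25 of these calls were kept in every fit, and below a call against the epiblasts is given for a single gene only if it was among them, unless its loss is stated. Of 23 paternally read members tested, 11 were higher in FS1, 13 in FS2, 13 in AF and 14 in AFX. Of 22 maternally read members tested, 11, 10, 10 and 11 were higher, and the 2 classes were not tested against each other.

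**Figure D4:**
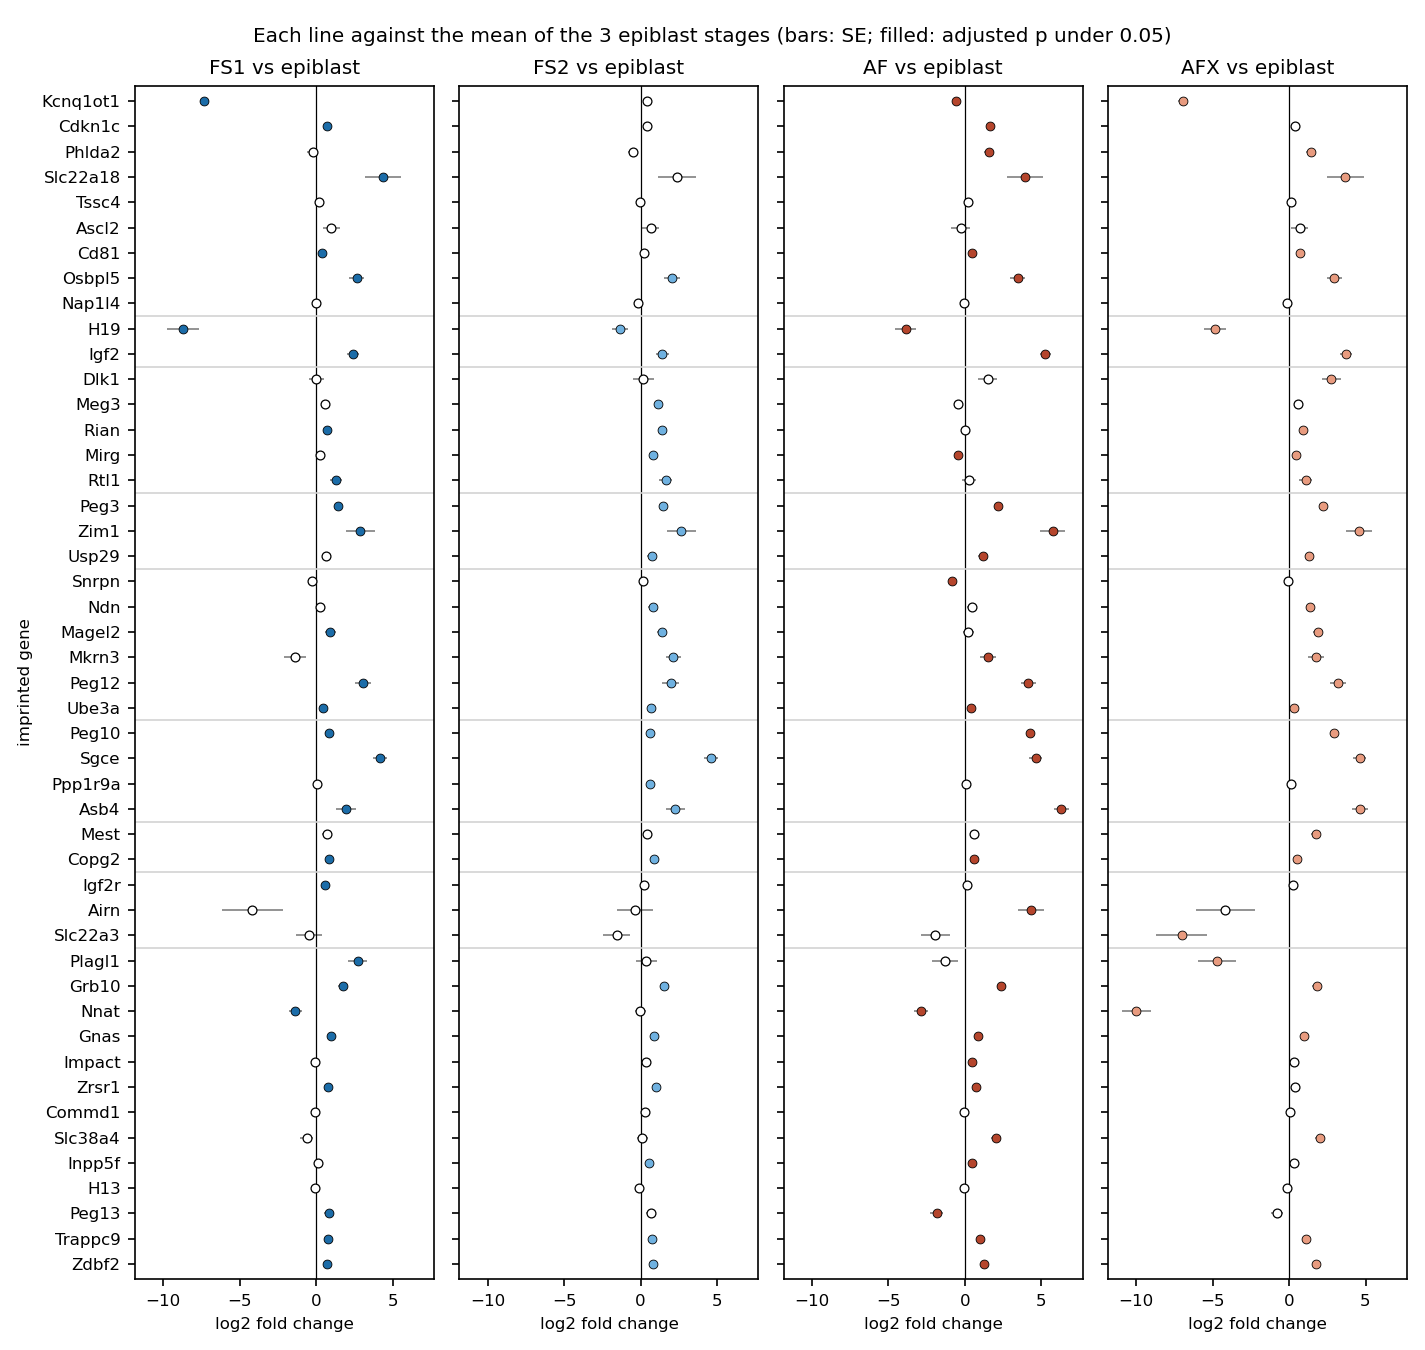
Log2 fold change (horizontal axis) with its SE of each of the 47 members tested (vertical axis, by cluster) in FS1, FS2, AF and AFX against the mean of the 3 epiblast stages, with filled points for an adjusted p under 0.05. Most filled points lie to the right of 0, and H19 and Kcnq1ot1 in FS1 and Kcnq1ot1 in AFX are far to the left. The points of Airn in FS1 and AFX and of Nnat and Slc22a3 in AFX are fitted values over a group with 0 counts, and those of Slc22a18 over 2 stages with 0 counts, so their positions are not sizes.

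Within the Kcnq1 cluster on chromosome 7, Cdkn1c, Phlda2, Osbpl5, Cd81, Nap1l4 and Tssc4 had RNA in the cultures with Kcnq1ot1 and in those without it, while Kcnq1, Slc22a18 and Ascl2 were low in each. Cdkn1c encodes p57, an inhibitor of the cell cycle. Cdkn1c measured 39.9, 64.6 and 62.1 CPM in FS1, 46.4, 45.9 and 48.3 in FS2, 114, 76.6 and 112 in AF and 48.8, 35.8 and 42.4 in AFX. In the epiblasts Cdkn1c ranged from 13.5 to 75.4 CPM, with a median of 30.1. AF was above every other culture, and FS1 and FS2, which differed in Kcnq1ot1, overlapped in Cdkn1c (-0.28 ± 0.19, adjusted p 0.504). Cdkn1c was lower in AFX than in AF (-1.26 ± 0.19, adjusted p 7.59e-04) and lower in FS than in AF (-1.06 ± 0.16, adjusted p 1.96e-04), and it was higher than in the epiblasts in AF (1.63 ± 0.18, adjusted p 3.12e-07) and FS1 (0.71 ± 0.19, adjusted p 0.00447). FS1 lay within the range of the E5.0 embryos, 37.1 to 75.4 CPM, and above every E5.5 and E6.0 embryo. Phlda2, which limits placental growth, was low in FS and higher in both EpiSC cultures. Phlda2 measured 6.12, 4.64 and 3.01 CPM in FS1, 5.1, 4.07 and 2.45 in FS2, 14.4, 20.3 and 11.9 in AF and 20.7, 11.8 and 9.41 in AFX. The FS samples were all below the AF and AFX samples (FS vs AF -1.98 ± 0.29, adjusted p 2.04e-04, and FS vs AFX -1.81 ± 0.29, adjusted p 8.32e-04). In the epiblasts Phlda2 ranged from 2.17 to 10.8 CPM, with a median of 3.92.

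Osbpl5, which encodes an oxysterol-binding protein, was low in the epiblasts and higher in most cultured samples. Osbpl5 measured 10.9, 10.1 and 5.66 CPM in FS1, 9.14, 2.09 and 6.35 in FS2, 14.3, 14.3 and 16.5 in AF and 9.45, 9.48 and 12.8 in AFX. In the epiblasts Osbpl5 ranged from 0 to 3.26 CPM, with a median of 1.66. FS2 p13 lay within that range, and the other cultured samples were above it. Each culture was called higher than the epiblasts, with log2 fold changes from 2.04 in FS2 to 3.47 in AF that rose to 3.82 to 5.28 without E5.0 embryo 2. In FS2 the call was lost against the E5.5 epiblasts alone (1.13, adjusted p 0.169) and against the E6.0 epiblasts alone (1.64, adjusted p 0.0593). FS was lower than AF (-1.14 ± 0.31, adjusted p 0.017), a call lost without AF p16 (-1.08, adjusted p 0.0587). Cd81, a tetraspanin of the cell surface, stood at 59.7 to 91.7 CPM in the cultures. Cd81 measured 76.3, 70.9 and 63.9 CPM in FS1, 70.7, 62.8 and 61.4 in FS2, 59.7, 89 and 69.2 in AF and 91.7, 88.5 and 76.2 in AFX. In the epiblasts Cd81 ranged from 32.1 to 73.2 CPM, with a median of 43.2. AFX was above the epiblasts (0.72 ± 0.15, adjusted p 3.18e-04) and above FS (-0.41 ± 0.12, adjusted p 0.0371 for FS vs AFX), the latter call lost without any 1 of AFX p14, AFX p15, FS1 p11, FS1 p18, FS2 p13 and FS2 p16 (log2 -0.42 to -0.36, adjusted p 0.0652 to 0.147). Nap1l4, a histone chaperone, was the most even member of the cluster, with group means of 109 to 136 CPM, and Tssc4 ran from 9.14 to 13.3. Neither passed in any comparison. Ascl2, a transcription factor of the trophoblast, did not pass either and averaged 0.576 to 3.06 CPM. Kcnq1, a potassium channel gene that Kcnq1ot1 overlaps on the opposite strand, averaged 0.367 CPM at most and was too low to be tested. Slc22a18, a membrane transporter gene, averaged 1.07 CPM at most. Slc22a18 measured 1.09, 1.68 and 0.442 CPM in FS1, with 28 counts in all, and the epiblasts had 19 counts, every one at E5.5. Slc22a18 was called higher than the epiblasts in FS1 (adjusted p 0.00444, a call kept without any 1 library but lost against E5.5 alone, adjusted p 0.756), in AF (adjusted p 0.00977, lost without AF p15, adjusted p 0.0896) and in AFX (adjusted p 0.0147, lost without AFX p14, adjusted p 0.359). Its fold change is not given, since E5.0 and E6.0 had 0 counts.

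Igf2, the paternally read growth factor that shares enhancers with H19 on chromosome 7, was highest in AF. Igf2 measured 26.4, 53.4 and 20.8 CPM in FS1, 15.6, 13 and 22.4 in FS2, 305, 278 and 124 in AF and 61.4, 83 and 96.8 in AFX. In the epiblasts Igf2 ranged from 2.42 to 24.7 CPM, with a median of 3.61. Every AF sample was above every AFX sample and every AFX sample above every FS sample. FS was lower than AF (-3.38 ± 0.34, adjusted p 4.41e-05) and lower than AFX (-1.82 ± 0.34, adjusted p 0.00506). Each culture was called higher than the epiblasts, by 5.28 ± 0.38, adjusted p 2.46e-08 in AF, 3.72 ± 0.39, adjusted p 1.28e-06 in AFX and 2.38 ± 0.41, adjusted p 1.82e-04 in FS1, and by 1.42 ± 0.42, adjusted p 0.0112 in FS2, where the call was lost without FS2 p16 (1.17, adjusted p 0.0822). Samples of FS1 and FS2 overlapped the highest epiblast, E5.0 embryo 2. In FS1, where H19 had 4 counts, Igf2 averaged 33.5 ± 17.4 CPM (SD, n = 3), and in FS2, where H19 averaged 26.2 ± 6.75 CPM, Igf2 averaged 17 ± 4.87. That difference in Igf2 did not pass (-0.99 ± 0.42, adjusted p 0.261). AF had the most Igf2 and the highest summed level of visceral endoderm markers among the cultures, and E5.0 among the epiblast stages. The genes that made up the sum differed between AF and E5.0. Of the 10 markers tested against the epiblasts, 3 were higher in AF (Sox17, Gata6 and Gata4) and 7 lower, and Cubn measured 0.274 to 0.486 CPM in AF against 133 to 549.8 at E5.0. Within AF, p16 had the highest sum and the lowest Igf2. Summed feeder fibroblast markers were also highest in AF. The part of either list in the Igf2 level was not tested.

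The Dlk1-Meg3 cluster on chromosome 12 makes a long maternal run of non-coding RNAs (Meg3, Rian and Mirg) and the paternal protein-coding genes Dlk1 and Rtl1. Meg3 and Rian were among the most abundant members in all samples and were lowest among cultures in AF. Meg3 measured 425, 516 and 616 CPM in FS1, 689, 848 and 876 in FS2, 215, 263 and 254 in AF and 541, 494 and 470.0 in AFX. In the epiblasts Meg3 ranged from 162 to 599.6 CPM, with a median of 282. All 9 samples of FS1, FS2 and AFX exceeded the 3 of AF. Rian measured 430.5, 469 and 569 CPM in FS1, 754, 914 and 813 in FS2, 283, 320.0 and 271 in AF and 648, 556 and 473 in AFX. In the epiblasts Rian ranged from 165 to 412 CPM, with a median of 243. Mirg measured 64.7, 70 and 92.2 CPM in FS1, 97.5, 135 and 111 in FS2, 50.6, 30.2 and 54.2 in AF and 89.1, 90.4 and 76.6 in AFX, and in epiblasts 40.1 to 81.7 CPM (median 52.2). All 3 RNAs were higher in AFX than in AF, at 1.03 ± 0.14, adjusted p 3.44e-04 for Meg3, 0.93 ± 0.13, adjusted p 5.25e-04 for Rian and 0.92 ± 0.20, adjusted p 0.00906 for Mirg. They were also higher in FS than in AF, at 1.32 ± 0.13, adjusted p 4.65e-06, 1.04 ± 0.12, adjusted p 2.51e-05 and 0.97 ± 0.18, adjusted p 0.00138. Against the epiblasts FS2 was higher for Meg3 (1.17 ± 0.24, adjusted p 7.24e-04), Rian (1.42 ± 0.12, adjusted p 4.78e-09) and Mirg (0.83 ± 0.16, adjusted p 1.58e-04), and AF was not called for Meg3 (-0.47 ± 0.26, adjusted p 0.148) or Rian (-0.01 ± 0.13, adjusted p 0.956). Rian was also higher than the epiblasts in FS1 (0.67 ± 0.13, adjusted p 1.53e-04) and AFX (0.92 ± 0.12, adjusted p 3.02e-06), while Meg3 was not called there (0.55 ± 0.25, adjusted p 0.0785 and 0.56 ± 0.25, adjusted p 0.0723). Meg3 shares 1228 exon bases with Gm26906 on the opposite strand, so its reads are uncertain to that extent.

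Rtl1, a retrotransposon-derived gene of the placenta, was low throughout. Rtl1 measured 15.3, 11 and 21.9 CPM in FS1, 13.7, 23.5 and 24.8 in FS2, 8.62, 6.48 and 7.39 in AF and 13.5, 14 and 13 in AFX. In the epiblasts Rtl1 ranged from 0.958 to 13.4 CPM, with a median of 5.54. FS was higher than AF (1.21 ± 0.24, adjusted p 0.00191), and FS2 was higher than the epiblasts (1.64 ± 0.41, adjusted p 0.00246), though not than those of E6.0 alone (1.09, adjusted p 0.118). Dlk1, a secreted ligand related to those of Notch, stood out in a single library. Dlk1 measured 4.04, 2.45 and 2.56 CPM in FS1, 1.76, 1.51 and 6.79 in FS2, 7.59, 11.5 and 5.06 in AF and 7.45, 1.95 and 49.2 in AFX. In the epiblasts Dlk1 ranged from 0.738 to 7.35 CPM, with a median of 2.52. The value of AFX p16 was far above the next highest of the series, and FS was called lower than AFX (-2.68 ± 0.78, adjusted p 0.0477) with all libraries in. That call was lost without any 1 of AFX p16, FS1 p10, FS1 p11, FS1 p18, FS2 p12 and FS2 p13 (log2 -2.81 to -0.65, adjusted p 0.0678 to 0.588).

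In the Peg3 cluster on chromosome 7, Peg3 was higher than in epiblasts in all 4 cultures, of which AF and AFX carry the same line name. Peg3, a zinc finger protein read from the paternal allele, was among the most abundant members. Peg3 measured 531, 458 and 394 CPM in FS1, 628, 384 and 444 in FS2, 536, 1119 and 599.8 in AF and 767, 761 and 805 in AFX. In the epiblasts Peg3 ranged from 84.9 to 198 CPM, with a median of 149.7. Every cultured sample exceeded every epiblast, with log2 fold changes of 1.40 ± 0.19, adjusted p 1.33e-05 in FS1, 1.47 ± 0.19, adjusted p 6.50e-06 in FS2, 2.18 ± 0.19, adjusted p 5.42e-08 in AF and 2.22 ± 0.19, adjusted p 4.14e-08 in AFX. FS was lower than AF (-0.75 ± 0.21, adjusted p 0.022), a call lost without AF p15 (-0.34, adjusted p 0.13), and lower than AFX (-0.79 ± 0.21, adjusted p 0.028), a call lost without any 1 of AFX p14, AFX p15, AFX p16, FS1 p11, FS1 p18, FS2 p13 and FS2 p16 (log2 -0.81 to -0.72, adjusted p 0.0559 to 0.106). AF p15 was the highest sample for each gene of the cluster. Usp29 is the neighbour read from the same promoter region. Usp29 measured 11.8, 10.4 and 11.9 CPM in FS1, 17.1, 9.18 and 9.99 in FS2, 8.88, 25.8 and 11.6 in AF and 18, 16.5 and 16.9 in AFX. In the epiblasts Usp29 ranged from 2.23 to 13 CPM, with a median of 5.26. AFX was higher than the epiblasts (1.29 ± 0.27, adjusted p 3.94e-04). Zim1 measured 1.31, 3.1 and 0.442 CPM in FS1, 1.23, 0.697 and 2.07 in FS2, 2.06, 28.5 and 2.24 in AF and 3.37, 5.97 and 5.18 in AFX, and in epiblasts it was at 0 to 2.13 CPM (median 0.0769). Zim1, a maternally read zinc finger gene, was higher than in epiblasts in AF (5.75 ± 0.81, adjusted p 8.37e-06, and 3.40 without AF p15 and 6.41 without E5.5 embryo 2) and AFX (4.55 ± 0.85, adjusted p 1.89e-04, and 5.19 without E5.5 embryo 2). FS was lower than AF (-2.99 ± 0.79, adjusted p 0.0181), but this rested on 1 library, since the call was lost without AF p15 (-0.63, adjusted p 0.448).

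In the Snrpn cluster on chromosome 7, Snrpn and Magel2 had their lowest cultured mean in AF. Snrpn encodes a protein of the spliceosome. Snrpn measured 60.5, 96.5 and 80.7 CPM in FS1, 107, 121 and 95.8 in FS2, 66.8, 39.5 and 45.9 in AF and 82.4, 99.1 and 80.9 in AFX. In the epiblasts Snrpn ranged from 56.6 to 114 CPM, with a median of 75.3. AF overlapped FS1 and no other culture. FS was higher than AF (0.79 ± 0.18, adjusted p 0.00533), and AF was the only culture called lower than the epiblasts (-0.86 ± 0.15, adjusted p 5.64e-05). AFX was higher than AF (0.78 ± 0.20, adjusted p 0.0212), with the loss named above. Magel2, of the MAGE family, differed in the same direction between AFX and AF (1.69 ± 0.43, adjusted p 0.0221). Magel2 measured 8.3, 6.84 and 13.9 CPM in FS1, 12.2, 16.2 and 13.1 in FS2, 7.98, 2.01 and 7.39 in AF and 11.7, 19.5 and 24.6 in AFX. In the epiblasts Magel2 ranged from 1.28 to 17.8 CPM, with a median of 3.75. The level rose within the epiblast stages, so the comparison depended on the stage: FS2 gave 1.42 against all stages and -0.06, adjusted p 0.924 against E6.0, and AFX gave 1.92 and 0.44, adjusted p 0.439. FS1 gave 0.93 ± 0.35, adjusted p 0.0321 against all stages, lost without any 1 of E5.0 embryo 1, E5.0 embryo 4, E5.5 embryo 2, E6.0 embryo 3 and FS1 p18 (log2 0.56 to 0.87, adjusted p 0.0527 to 0.285), and -0.55, adjusted p 0.332 against E6.0.

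Ndn, which encodes necdin, was higher in AFX than in AF (0.89 ± 0.23, adjusted p 0.0216) and than in FS (-0.84 ± 0.19, adjusted p 0.00979 for FS vs AFX). The latter call was lost without AFX p16 (-0.60, adjusted p 0.0928). Ndn measured 11, 11.1 and 12.1 CPM in FS1, 14.6, 14.8 and 20.5 in FS2, 11.1, 10.1 and 16.5 in AF and 21.3, 18.4 and 30.5 in AFX. In the epiblasts Ndn ranged from 4.31 to 15.9 CPM, with a median of 6.2. AFX overlapped FS2 but lay above all of AF. Mkrn3 was higher than in the epiblasts in FS2 (2.16 ± 0.50, adjusted p 0.0011), a call lost against E5.5 alone (1.30, adjusted p 0.116). Peg12 measured 3.71, 6.58 and 3.01 CPM in FS1, 1.76, 1.98 and 2.51 in FS2, 10.7, 8.76 and 7.59 in AF and 1.79, 2.73 and 9.5 in AFX, and 0 to 1.47 CPM (median 0.362) in epiblasts. Peg12 was higher than in the epiblasts in each culture, with AF the largest at 4.16 ± 0.51, adjusted p 7.90e-07 and AFX at 3.22 ± 0.53, adjusted p 3.08e-05 (2.15 without AFX p16), FS2 losing its call against E5.5 alone (1.40, adjusted p 0.126), and FS was lower than AF (-1.64 ± 0.42, adjusted p 0.0109). Ube3a, the ubiquitin ligase read from both copies outside neurons, was higher than in epiblasts in all cultures, by 0.43 ± 0.08, adjusted p 2.12e-04 in FS1, 0.68 ± 0.08, adjusted p 6.11e-07 in FS2, 0.41 ± 0.08, adjusted p 3.54e-04 in AF and 0.30 ± 0.08, adjusted p 0.00605 in AFX. Ube3a measured 213, 222 and 239 CPM in FS1, 287, 256 and 264 in FS2, 230.3, 200.3 and 203 in AF and 193, 199 and 196 in AFX. In the epiblasts Ube3a ranged from 99.7 to 176 CPM, with a median of 136. Every cultured sample lay above every epiblast, although against E5.5 alone AF (0.25, adjusted p 0.0567) and AFX (0.14, adjusted p 0.301) lost the call, as did AFX against E6.0 alone (0.19, adjusted p 0.162).

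Snhg14, the long RNA that continues from Snrpn and runs antisense over Ube3a, is no member, and is given because its reads may be counted with those of Ube3a. It measured 66.3, 44.5 and 81.7 CPM in FS1, 268, 317 and 343 in FS2, 31.2, 43.8 and 29.1 in AF and 161, 169 and 136 in AFX. FS2 and AFX were the high groups, with no overlap with FS1 or AF. Snhg14 was higher in FS2 than in FS1 (2.24 ± 0.20, adjusted p 1.37e-05) and higher in AFX than in AF (2.15 ± 0.21, adjusted p 3.57e-05). Ube3a was not called in either comparison (0.23 ± 0.10, adjusted p 0.233, and -0.12 ± 0.10, adjusted p 0.532).

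In the Peg10 cluster on chromosome 6, Peg10, a retrotransposon-derived gene needed for the placenta, was far higher in EpiSC cultures than elsewhere. Peg10 measured 45.2, 58.8 and 25.6 CPM in FS1, 46, 32 and 35.3 in FS2, 421, 419.8 and 498 in AF and 117, 191 and 230.1 in AFX. In the epiblasts Peg10 ranged from 6.5 to 66.2 CPM, with a median of 14.5. AF was above AFX and AFX above every FS and epiblast sample, without overlap. Peg10 was lower in AFX than in AF (-1.32 ± 0.29, adjusted p 0.0112), and lower in FS than in AF (-3.55 ± 0.24, adjusted p 1.37e-06) and AFX (-2.23 ± 0.24, adjusted p 8.25e-05). Asb4 measured 0.983, 0.645 and 0.531 CPM in FS1, 0.439, 0.814 and 1.38 in FS2, 13.5, 19 and 10.3 in AF and 4.94, 3.12 and 5.35 in AFX, and in epiblasts it was at 0 to 0.846 CPM (median 0.127). Asb4, a maternally read subunit of a ubiquitin ligase, had the same order, with AFX below AF (-1.67 ± 0.36, adjusted p 0.00659) and FS below AF (-4.21 ± 0.33, adjusted p 6.09e-07) and AFX (-2.54 ± 0.34, adjusted p 1.58e-04). Extraembryonic ectoderm markers, where Peg10 and other placental genes are also known to be active, summed to 52.8 to 79.6 CPM in AF, 29 to 49.5 in AFX, 19.9 to 31.7 in FS1 and 16.5 to 20.7 in FS2, and their part was not tested.

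Sgce, a sarcoglycan that shares its promoter with Peg10 in the opposite direction, did not have that order. Sgce measured 11.6, 11.1 and 11.1 CPM in FS1, 15.4, 12.9 and 17.3 in FS2, 10.6, 24 and 9.44 in AF and 17.2, 13.1 and 13.6 in AFX. In the epiblasts Sgce ranged from 0 to 1.11 CPM, with a median of 0.692. All cultured samples were above all epiblasts. Among the cultures FS1 lay below every FS2 and AFX sample, and AF spanned the other 3 groups. Each culture was called higher than the epiblasts (4.17 ± 0.46, adjusted p 3.23e-07 in FS1, 4.60 ± 0.45, adjusted p 5.15e-08 in FS2, 4.63 ± 0.45, adjusted p 5.25e-08 in AF and 4.61 ± 0.45, adjusted p 5.27e-08 in AFX), and the values rose to 5.73 to 6.21 without E5.0 embryo 1. Ppp1r9a, a neuronal actin-binding protein, was higher than in the epiblasts in FS2 (0.60 ± 0.16, adjusted p 0.00279), but not against E5.5 alone (0.48, adjusted p 0.0583). Ppp1r9a measured 80.5, 81.5 and 77.2 CPM in FS1, 130.4, 101 and 117 in FS2, 65.8, 95.2 and 66.2 in AF and 91.1, 80.6 and 67.6 in AFX. In the epiblasts Ppp1r9a ranged from 43 to 82.2 CPM, with a median of 58.1.

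Elsewhere on chromosome 6, Mest, a paternally read hydrolase of the mesoderm, spread widely between passages. Mest measured 78.6, 135 and 132 CPM in FS1, 99.4, 85 and 105 in FS2, 158, 70.2 and 84.1 in AF and 106, 243 and 321 in AFX. In the epiblasts Mest ranged from 21.6 to 106 CPM, with a median of 67.3. AFX was higher than the epiblasts (1.73 ± 0.29, adjusted p 1.49e-04), and FS was lower than AFX (-1.16 ± 0.34, adjusted p 0.0489), a call lost in 8 of the 9 fits without 1 library, those without AFX p15, AFX p16, FS1 p10, FS1 p11, FS1 p18, FS2 p12, FS2 p13 and FS2 p16, with adjusted p up to 0.234. Copg2, a coat protein gene that overlaps Mest on the opposite strand, measured 52.9, 58 and 38.4 CPM in FS1, 57.7, 47.4 and 49.8 in FS2, 31.8, 59.7 and 31.2 in AF and 52.8, 31.9 and 33.6 in AFX. In the epiblasts Copg2 ranged from 12.9 to 41.3 CPM, with a median of 24.3. FS1 (0.81 ± 0.19, adjusted p 0.00127) and FS2 (0.86 ± 0.19, adjusted p 6.29e-04) were higher than the epiblasts, but not than those of E6.0 alone (0.38, adjusted p 0.238, and 0.42, adjusted p 0.173).

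Around Igf2r on chromosome 17, Igf2r itself was abundant in all samples. Igf2r measured 280.0, 285 and 267 CPM in FS1, 252, 206 and 218 in FS2, 203, 270.1 and 135 in AF and 238, 208 and 207 in AFX. In the epiblasts Igf2r ranged from 129 to 195 CPM, with a median of 159. FS1 was higher than the epiblasts (0.54 ± 0.12, adjusted p 0.00106). Slc22a3, an organic cation transporter that Airn silences in the placenta, was listed at 0 in AFX. Slc22a3 measured 1.2, 2.32 and 0.354 CPM in FS1, 0.615, 1.05 and 0.188 in FS2, 0.129, 1.0 and 0.0973 in AF and 0, 0 and 0 in AFX. In the epiblasts Slc22a3 ranged from 0 to 14.8 CPM, with a median of 1.26. The epiblasts were at least 9.93-fold and FS1 at least 4.49-fold above AFX against a floor of 3 counts per library. The first bound was 4.75-fold without E6.0 embryo 1 and the second 2.7-fold without FS1 p11. The test called FS higher than AFX (adjusted p 0.0258) and AFX lower than the epiblasts (adjusted p 0.00149), and these calls were lost without AFX p14, AFX p15 and AFX p16 for the first (adjusted p of up to 0.0785), and without E5.0 embryo 1 for the second (adjusted p 1.00).

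Among the single loci, Grb10 was the member with the highest mean level per kb of exon in each culture, at 59.5 CPM per kb in FS1, 53.1 in FS2, 89.6 in AF and 59.7 in AFX, and stood at rank 5 in the epiblasts at 18.9, where Snrpn was first at 38. It encodes an adaptor that restrains insulin and IGF receptor signalling. Grb10 measured 531, 613 and 478 CPM in FS1, 483, 495 and 468 in FS2, 704, 1201 and 539.7 in AF and 569, 503 and 557 in AFX. In the epiblasts Grb10 ranged from 16.3 to 347 CPM, with a median of 137. Each culture was above each epiblast, by 1.73 ± 0.29, adjusted p 1.40e-04 in FS1, 1.56 ± 0.29, adjusted p 3.30e-04 in FS2, 2.39 ± 0.28, adjusted p 4.62e-06 in AF and 1.80 ± 0.29, adjusted p 9.33e-05 in AFX. Against the E6.0 epiblasts alone FS1 (0.49, adjusted p 0.337), FS2 (0.32, adjusted p 0.54) and AFX (0.56, adjusted p 0.27) lost the call. FS was lower than AF (-0.76 ± 0.18, adjusted p 0.0090). Gnas, the stimulatory G protein subunit, was likewise above all epiblasts in every culture. Gnas measured 507, 477 and 475 CPM in FS1, 459, 502 and 461 in FS2, 421, 514 and 409 in AF and 491, 445 and 478 in AFX. In the epiblasts Gnas ranged from 133 to 345 CPM, with a median of 201. The 4 log2 fold changes were 0.93 ± 0.09, adjusted p 3.31e-08 in FS1, 0.89 ± 0.09, adjusted p 5.64e-08 in FS2, 0.88 ± 0.09, adjusted p 6.25e-08 in AF and 0.95 ± 0.09, adjusted p 2.01e-08 in AFX. Nespas, antisense at the same locus, averaged 55.9 CPM in FS1 and 40 in AF, and reads of the 2 may not be told apart.

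Slc38a4, an amino acid transporter read from the paternal allele, separated the EpiSC cultures from all other samples. Slc38a4 measured 28.8, 9.42 and 5.75 CPM in FS1, 24.3, 22.4 and 27.4 in FS2, 99.6, 73.5 and 97 in AF and 85.7, 100.3 and 78.6 in AFX. In the epiblasts Slc38a4 ranged from 8.62 to 39.7 CPM, with a median of 17.1. No FS or epiblast sample reached the lowest AF or AFX sample. FS was lower than AF (-2.33 ± 0.34, adjusted p 5.38e-04) and AFX (-2.29 ± 0.34, adjusted p 0.00124), and AF (2.05 ± 0.34, adjusted p 1.03e-04) and AFX (2.02 ± 0.34, adjusted p 1.31e-04) were higher than the epiblasts. Zdbf2, a paternally read zinc finger gene on chromosome 1, was higher in cultures than in any epiblast. Zdbf2 measured 227, 172 and 152 CPM in FS1, 196, 192 and 203 in FS2, 283, 214 and 276 in AF and 307, 368 and 404 in AFX. In the epiblasts Zdbf2 ranged from 71.7 to 118 CPM, with a median of 90. It was called in each culture (0.72 ± 0.11, adjusted p 2.32e-05 in FS1, 0.81 ± 0.11, adjusted p 3.86e-06 in FS2, 1.28 ± 0.11, adjusted p 5.31e-09 in AF and 1.76 ± 0.11, adjusted p 2.17e-11 in AFX), and FS was lower than AF (-0.52 ± 0.13, adjusted p 0.00816) and AFX (-0.997 ± 0.13, adjusted p 1.08e-04).

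Plagl1, a zinc finger regulator of the cell cycle and of other imprinted genes, was highest in FS1. Plagl1 measured 2.73, 16.8 and 3.36 CPM in FS1, 1.23, 1.16 and 2.07 in FS2, 0.386, 0.912 and 0 in AF and 0.0716, 0 and 0 in AFX. In the epiblasts Plagl1 ranged from 0.0852 to 2.61 CPM, with a median of 0.958. FS1 p11 stood well above the other FS1 samples. Over its 3 libraries AFX had 1 count, and the ratio of FS1 to AFX was 227 (95% counting interval 40.3 to 9029.7) and of FS2 to AFX 52.8 (95% counting interval 9.1 to 2121). Without FS1 p11 the first ratio was 102. Without AFX p16 the ratios were 148 and 34.4, and without AFX p14, which held the single count, FS1 was at least 23.5-fold and FS2 at least 4.59-fold above AFX. FS was called higher than AFX (adjusted p 0.00345) and than AF (2.83 ± 0.83, adjusted p 0.0235), the second call being lost without any 1 of AF p14, AF p16 and FS2 p16 (log2 2.22 to 2.74, adjusted p 0.0501 to 0.0822). Without AF p15 the Plagl1 value against AF was 4.15, and without FS1 p11 it was 2.16. Peg13, a paternal non-coding RNA, was also higher in FS. Peg13 measured 5.79, 8.25 and 6.28 CPM in FS1, 5.45, 7.32 and 5.72 in FS2, 0.644, 0.912 and 1.46 in AF and 3.37, 1.43 and 1.47 in AFX. In the epiblasts Peg13 ranged from 2.02 to 5.55 CPM, with a median of 2.54. FS did not overlap AF or AFX. FS was higher than AF (2.56 ± 0.38, adjusted p 1.94e-04) and AFX (1.52 ± 0.34, adjusted p 0.00783), the latter lost without AFX p16 (1.31, adjusted p 0.0501). AF was lower than the epiblasts (-1.84 ± 0.42, adjusted p 8.58e-04). Peg13 lies in an intron of Trappc9, a gene of vesicle transport. Trappc9 measured 21.8, 23.9 and 19.3 CPM in FS1, 24.7, 16.4 and 24.9 in FS2, 19.8, 37.1 and 16.5 in AF and 37, 23.5 and 21.5 in AFX. In the epiblasts Trappc9 ranged from 8.09 to 13.8 CPM, with a median of 10.4. Each culture exceeded the epiblasts, from 0.74 ± 0.22, adjusted p 0.00791 in FS1 to 1.14 ± 0.21, adjusted p 1.41e-04 in AFX, FS1 (0.59, adjusted p 0.0961) and FS2 (0.61, adjusted p 0.0812) losing the call against E5.5 alone, and FS1 against E6.0 alone (0.71, adjusted p 0.0531).

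The remaining single loci had fewer calls. Zrsr1, a splicing factor gene inside Commd1, was higher than in the epiblasts in FS1 (0.77 ± 0.17, adjusted p 6.35e-04), FS2 (1.02 ± 0.16, adjusted p 2.00e-05) and AF (0.74 ± 0.17, adjusted p 7.82e-04). Zrsr1 measured 14.5, 15.1 and 14.5 CPM in FS1, 18.9, 17.1 and 17 in FS2, 14.2, 15.1 and 12.3 in AF and 9.88, 13.5 and 9.75 in AFX, against 3.89 to 11.2 CPM (median 7.84) in the epiblasts. Commd1 measured 13, 13.5 and 12.4 CPM in FS1, 17.1, 12.4 and 20.4 in FS2, 11.1, 13 and 14.6 in AF and 14.2, 13.6 and 14.3 in AFX. Commd1, which acts in copper handling, was called in no comparison of a culture with the epiblasts, where it measured 6.27 to 16.2 CPM (median 14.4). Impact measured 33, 29.9 and 31.3 CPM in FS1, 39.1, 49.5 and 37.8 in FS2, 48.3, 32.3 and 49 in AF and 34.5, 46 and 39.1 in AFX, against 19.4 to 36.7 CPM (median 28.6) in the epiblasts. Impact, a translational regulator, had 1 call, for AF over the epiblasts (0.45 ± 0.16, adjusted p 0.0237), lost without AF p14 (0.37, adjusted p 0.124) or AF p16 (0.35, adjusted p 0.136) and against E6.0 alone (0.25, adjusted p 0.342). Inpp5f measured 24.6, 24.6 and 27 CPM in FS1, 34.4, 38.2 and 33.3 in FS2, 28.7, 37 and 26.9 in AF and 26, 30.5 and 27.5 in AFX, against 11.7 to 24 CPM (median 20.8) in the epiblasts. Inpp5f, an inositol phosphatase, was higher in FS2 than in the epiblasts (0.58 ± 0.16, adjusted p 0.00505), but not than in those of E6.0 alone (0.46, adjusted p 0.0822). H13, a signal peptide peptidase, averaged 36.4 to 48.6 CPM over the groups and passed no test. Mcts2, a paternal gene in an intron of H13, averaged 12 CPM in FS1. Nap1l5, inside Herc3, averaged 1.05 CPM at most and was not tested. It had 27 counts in FS2 and 66 in the epiblasts against 1 in FS1, 1 in AF and 0 in AFX, and Herc3 itself averaged 24.8 CPM in FS1 and 28.5 in FS2. Kcnk9, a potassium channel of the brain, was near 0 in every group and was not tested.

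Between embryo stages, 15 of 41 members tested passed from E5.0 to E6.0, 8 higher and 7 lower at E6.0, where 21.8% of all genes were called, 10.2% higher and 11.6% lower. The members' median was 0.09 and that of all genes -0.02. Of the 15 calls 6 were made in every fit without 1 embryo: Peg10, Cdkn1c, Snrpn, Magel2, Gnas and Copg2. Peg10 and Cdkn1c fell. Peg10 measured 66.2, 50.8 and 51.2 CPM at E5.0, 13.5, 15.1 and 12.4 at E5.5 and 6.5, 14.5 and 10.3 at E6.0. The 3 embryos of E5.0 were above all others (-2.40 ± 0.26, adjusted p 2.95e-05). Cdkn1c measured 37.1, 58.5 and 75.4 CPM at E5.0, 30.1, 19.2 and 31.5 at E5.5 and 13.5, 14.8 and 15.8 at E6.0, again with no overlap between E5.0 and E6.0 (-1.97 ± 0.28, adjusted p 2.54e-04). Visceral endoderm markers, present as a list of 11 at 282 to 803 CPM at E5.0 and 23.3 to 33.1 at E6.0, were measured in the same embryos, and extraembryonic ectoderm markers stood at 28.3 to 64.9 and 25.4 to 29.8 CPM. Their part in the lower levels of Peg10 and Cdkn1c was not tested.

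Magel2, Gnas, Snrpn and Copg2 rose. Magel2 measured 1.69, 2.57 and 1.28 CPM at E5.0, 5.26, 2.0 and 3.75 at E5.5 and 17.8, 11.1 and 7.38 at E6.0. Each E6.0 embryo was above each E5.0 and E5.5 embryo (2.69 ± 0.48, adjusted p 0.00124). Gnas measured 149.9, 174 and 133 CPM at E5.0, 227, 199.6 and 201 at E5.5 and 345, 318 and 247 at E6.0, in an order of stages without overlap (0.97 ± 0.13, adjusted p 1.40e-04). Snrpn measured 73.8, 56.6 and 64.8 CPM at E5.0, 75.3, 79.4 and 68 at E5.5 and 114, 94.2 and 112 at E6.0, with E6.0 above the rest (0.70 ± 0.12, adjusted p 0.0012). Copg2 measured 19, 17.8 and 12.9 CPM at E5.0, 30.5, 24.3 and 21.1 at E5.5 and 41.3, 28.4 and 26.7 at E6.0, and E5.0 was below the other stages (0.93 ± 0.22, adjusted p 0.00815). Grb10 measured 56.1, 16.3 and 91.9 CPM at E5.0, 134, 137 and 155 at E5.5 and 343, 347 and 269 at E6.0. Grb10 was called higher at E6.0 (2.52 ± 0.53, adjusted p 0.0172, and 3.17 without E5.0 embryo 4) and its stages did not overlap, but the call was lost without any 1 of E5.0 embryo 1, E6.0 embryo 1 and E6.0 embryo 2 (log2 2.46 to 2.53, adjusted p 0.0512 to 0.0591).

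The other 8 calls were lost in at least 1 fit without 1 embryo. Igf2 measured 9.16, 24.7 and 4.37 CPM at E5.0, 3.47, 2.42 and 5.45 at E5.5 and 2.8, 3.61 and 2.95 at E6.0. The Igf2 call, with a log2 fold change of -2.03 ± 0.56, adjusted p 0.0197, was lost without any 1 of E5.0 embryo 2, E6.0 embryo 1, E6.0 embryo 2 and E6.0 embryo 3 (log2 -2.15 to -1.05, adjusted p 0.0556 to 0.13). Dlk1 measured 7.35, 2.23 and 2.66 CPM at E5.0, 4.31, 2.52 and 4.68 at E5.5 and 0.765, 1.46 and 0.738 at E6.0. The Dlk1 call, with a log2 fold change of -1.99 ± 0.60, adjusted p 0.0281, was lost without any 1 of E5.0 embryo 1, E6.0 embryo 1 and E6.0 embryo 3 (log2 -1.82 to -1.31, adjusted p 0.104 to 0.143). Usp29 measured 13, 12 and 7.45 CPM at E5.0, 5.26, 5.99 and 4.6 at E5.5 and 4.84, 2.23 and 4.98 at E6.0. The Usp29 call, with a log2 fold change of -1.44 ± 0.38, adjusted p 0.0154, was lost without E6.0 embryo 2 (-1.14, adjusted p 0.0826). Igf2, Dlk1 and Usp29 were lower at E6.0, and the embryos of the 2 stages did not overlap. Nnat measured 9.89, 30.7 and 19.2 CPM at E5.0, 6.1, 8.62 and 9.28 at E5.5 and 7.77, 9.53 and 9.51 at E6.0. The Nnat call, with a log2 fold change of -1.18 ± 0.38, adjusted p 0.0386, was lost without any 1 of E5.0 embryo 2, E5.0 embryo 4, E6.0 embryo 1, E6.0 embryo 2 and E6.0 embryo 3 (log2 -1.24 to -0.68, adjusted p 0.0683 to 0.182). Igf2r measured 195, 166 and 156 CPM at E5.0, 159, 176 and 192 at E5.5 and 142, 129 and 129 at E6.0. The Igf2r call, with a log2 fold change of -0.38 ± 0.10, adjusted p 0.0182, was lost without any 1 of E5.0 embryo 1, E6.0 embryo 1, E6.0 embryo 2 and E6.0 embryo 3 (log2 -0.37 to -0.31, adjusted p 0.0675 to 0.089). Ube3a measured 129.6, 99.7 and 119.9 CPM at E5.0, 157, 176 and 136 at E5.5 and 160.1, 152 and 135 at E6.0. The Ube3a call, with a log2 fold change of 0.34 ± 0.12, adjusted p 0.0468, was lost without any 1 of E5.0 embryo 2, E6.0 embryo 1, E6.0 embryo 2 and E6.0 embryo 3 (log2 0.28 to 0.40, adjusted p 0.071 to 0.142). Both Nnat and Igf2r were lower at E6.0 and Ube3a was higher, by small margins between the nearest embryos. Commd1 measured 6.27, 9.44 and 6.28 CPM at E5.0, 15.3, 12.3 and 14.4 at E5.5 and 14.7, 14.6 and 16.2 at E6.0. The Commd1 call, with a log2 fold change of 1.04 ± 0.27, adjusted p 0.0145, was lost without E6.0 embryo 3 (0.97, adjusted p 0.0608). Slc22a3 measured 1.09, 0 and 0 CPM at E5.0, 1.26, 1.26 and 1.19 at E5.5 and 14.8, 4.38 and 1.75 at E6.0. The Slc22a3 call, with an adjusted p of 0.0137, was lost without E6.0 embryo 1 (3.10, adjusted p 0.106). Commd1 and Slc22a3 were higher at E6.0 and did not overlap with E5.0, and the Slc22a3 level of E6.0 embryo 1 was well above those of the other 2. Kcnq1ot1 did not pass the test (-0.00342 ± 0.26, adjusted p 0.995), nor did H19 (-0.81 ± 0.36, adjusted p 0.154).

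The proteins that keep imprints were followed in a list of 22 genes, all of which had counts in some group. Against the epiblasts 16 of 22 were called in FS1, 19 of 22 in FS2, 21 of 22 in AF and 20 of 22 in AFX, where 47.4%, 50.3%, 49.5% and 49% of all genes were called. In each culture 2 of the listed genes called were higher (Zfp57 and Tet2) and the rest lower. Fits without 1 library were not run for this list. The list's median on the log2 scale was -0.53, -0.65, -0.76 and -0.66, and that of all genes 0.07, 0.08, 0.08 and 0.08. Zfp57, which binds the methylated imprinting control regions, was higher in each culture (1.10 ± 0.17, adjusted p 1.51e-05 in FS1, 1.30 ± 0.17, adjusted p 1.28e-06 in FS2, 1.53 ± 0.17, adjusted p 1.19e-07 in AF and 1.29 ± 0.17, adjusted p 1.61e-06 in AFX). Zfp57 measured 29, 46.3 and 47.2 CPM in FS1, 52.5, 40 and 48.6 in FS2, 46.1, 62 and 49.5 in AF and 46, 41.8 and 46 in AFX. Zfp57 measured 27.2, 39.6 and 19.9 CPM at E5.0, 22.5, 19.9 and 21.9 at E5.5 and 7.14, 5.46 and 7.01 at E6.0. It fell from E5.0 to E6.0 (-2.16 ± 0.27, adjusted p 8.53e-05), and the E6.0 embryos were the lowest samples of the series. FS1 p10 lay below E5.0 embryo 2, while all FS2, AF and AFX samples lay above every embryo. The size of the difference between cultures and epiblasts in Zfp57 thus depended on the stage. Trim28, the co-repressor of Zfp57, was lower in each culture, from -1.05 ± 0.13, adjusted p 1.35e-06 in AF to -0.81 ± 0.13, adjusted p 2.95e-05 in AFX, with means of 726 ± 110.1 CPM in FS1 and 1141 ± 117 (SD, n = 9) in the epiblasts. Zfp445, which acts beside Zfp57, had group means of 70.5 to 86.9 CPM. It was called lower in FS2 (-0.24 ± 0.08, adjusted p 0.0181), AF (-0.39 ± 0.08, adjusted p 5.27e-04) and AFX (-0.25 ± 0.08, adjusted p 0.0164), on the scale of the test. That scale multiplies each library's total by a TMM factor, 1.04 to 1.1 in cultures and 0.867 to 0.971 in epiblasts, so a fold change against epiblasts can lie below the ratio of the CPM levels, and the Zfp445 mean of FS2 in CPM was not below that of the epiblasts.

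Dnmt1, the maintenance methyltransferase, averaged 476 ± 25 CPM in FS1, 392 ± 13.2 in FS2, 354 ± 44.9 in AF, 428 ± 23.3 in AFX (SD, n = 3) and 445 ± 17 (n = 9) in the epiblasts. It was lower than in the epiblasts in FS2 (-0.45 ± 0.08, adjusted p 7.65e-05), AF (-0.52 ± 0.08, adjusted p 1.48e-05) and AFX (-0.26 ± 0.08, adjusted p 0.0109), and FS1 had no call (-0.16 ± 0.08, adjusted p 0.0974). Uhrf1, which brings DNMT1 to newly copied DNA, was lower than the mean of the epiblast stages in all cultures. It also fell from E5.0 to E6.0, as given below. Uhrf1 was 1 of 2 genes of the list that differed between the FS lines, lower in FS2 (-0.66 ± 0.15, adjusted p 0.0218). Uhrf1 measured 428, 399 and 533 CPM in FS1, 281, 289 and 309 in FS2, 349, 236 and 358 in AF and 349, 395 and 352 in AFX. The other was Dnmt3l, a cofactor of de novo methylation, higher in FS2 (3.29 ± 0.83, adjusted p 0.0426). Dnmt3l measured 0.328, 0.387 and 0.177 CPM in FS1, 4.04, 1.51 and 3.27 in FS2, 0.644, 0.821 and 4.48 in AF and 4.58, 8.44 and 2.42 in AFX. Dnmt3l measured 279, 288 and 381 CPM at E5.0, 102, 213 and 191 at E5.5 and 9.56, 14.2 and 23.4 at E6.0. Dnmt3l had the largest fall of the list with stage (-4.32 ± 0.45, adjusted p 5.98e-04) and was lower still in the cultures. Dppa3, which protects the maternal genome from demethylation in the zygote, was listed at 0 in every FS1 and FS2 sample, and averaged 2.31 CPM in AF, 0.0288 in AFX and 5.35 in the epiblasts.

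Between the EpiSC cultures, Hells (0.50 ± 0.14, adjusted p 0.0312) and Tet1 (0.34 ± 0.10, adjusted p 0.0446) were higher and Zfp42 (-5.03 ± 0.90, adjusted p 0.00239) was lower in AFX than in AF. FS was higher than AF for Setdb1 (0.55), Hells (0.38), Atrx (0.28) and Tet1 (0.59). Setdb1 measured 135 to 139 CPM in FS1, 119 to 144 in FS2 and 64 to 102 in AF. Hells measured 343 to 421 CPM in FS1, 358 to 419.9 in FS2 and 225 to 318 in AF. Atrx measured 459.8 to 468 CPM in FS1, 459 to 499.9 in FS2 and 343 to 383 in AF. Tet1 stood at 299.9 to 317 CPM in FS1, 367 to 441 in FS2 and 199 to 240.3 in AF, so that each line lay above AF for these 4 genes. Zfp42 was lower in FS (-5.25), at 0.218 CPM or less in both lines and 2.19 to 5.16 in AF. Of the 20 genes tested, Dnmt3l was the only one called between FS and AFX (-2.50 ± 0.59, adjusted p 0.0113), where FS1 lay below all AFX samples and FS2 overlapped them, so the contrast describes neither line. From E5.0 to E6.0, 8 of 22 were called, beside 21.8% of all genes. Besides Zfp57 and Dnmt3l these were Uhrf1 (-0.63), Hells (-0.70), Atrx (-0.50), Zfp42 (-2.73) and Tet1 (-0.78), lower, and Smchd1 (0.87), higher.

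Lower than in the epiblasts in all 4 cultures were also Dnmt3a, the de novo methyltransferase (-1.75 in FS1, -1.47 in FS2, -1.81 in AF and -1.62 in AFX), Ctcf, which insulates Igf2 from the enhancers it shares with H19 (-0.63, -0.68, -0.77 and -0.59), and, from -1.31 to -0.38, Atrx, Daxx, Ehmt1, Hells, Tet1 and Yy1. For Tet1 this depended on the stage, since the FS2 samples, at 367 to 441 CPM, were above the E6.0 embryos, at 275 to 309. Zfp42 was lower in each culture, between -7.04 in FS2 and -1.42 in AF, and Tet2, which removes methylation, was higher by 1.99 in AF and 2.30 in FS2. Setdb1 (-0.70 in AF and -0.48 in AFX) and Smchd1 (-0.23 and -0.31) were called lower in AF and AFX, although for Smchd1 each AF and AFX sample was above each E5.0 embryo, and Ehmt2 was called lower in FS2, AF and AFX (-0.64, -0.76 and -0.76). Ctcfl, near absent, was called lower in FS1, FS2 and AF.

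**Figure D5:**
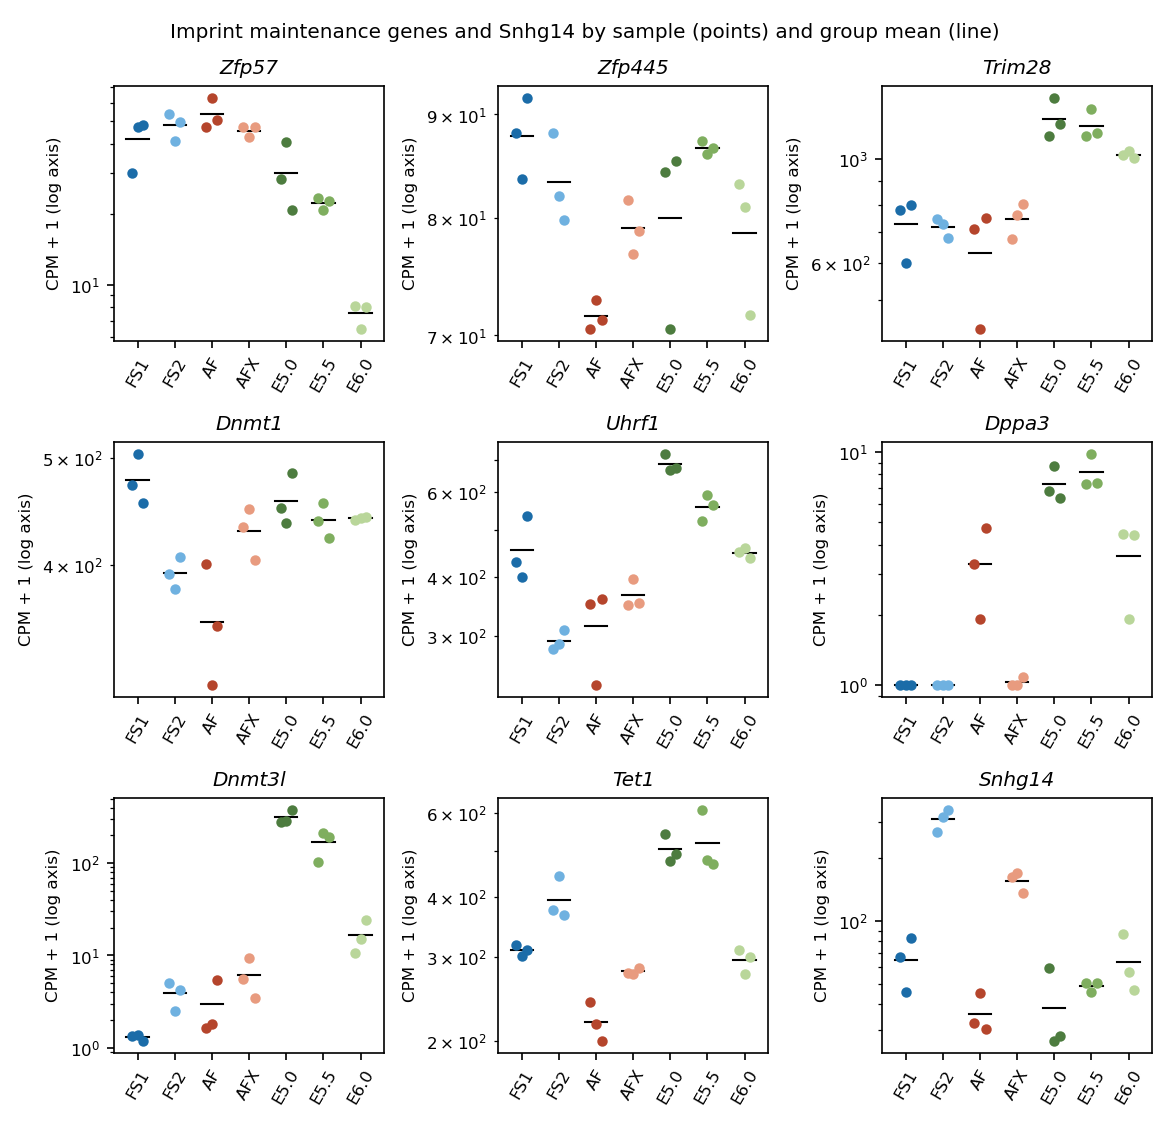
CPM + 1 on a log axis for 8 genes of imprint maintenance and for Snhg14, with 1 point per sample and a line at the mean of each group (n = 3 per group), each panel with its own axis range. Zfp57 is lowest at E6.0, Dppa3 is at 0 in FS1 and FS2, and Snhg14 is highest in FS2.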

How the data were processed

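RNA of 12 cultured samples and 9 single epiblasts was sequenced. The authors deposited raw read counts per gene in 1 table. Per the submitters' processing notes, Trim Galore, TopHat2 2.1.0 and featureCounts 1.5.0 were used with the build mm10, and their order, settings and strand option are not given in the sources used here. Gene positions and exon lengths were taken from GENCODE M21 (GRCm38) and promoter windows from RefSeq (GRCm38.p6). The members, gene lists and tests were chosen with earlier results of these data known.

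Counts were tested in R 4.3.3 with edgeR 4.0.16 (filterByExpr, TMM, robust quasi-likelihood F-tests, two-sided, Benjamini-Hochberg over all genes tested, threshold 0.05). Comparisons between cultures used the 12 cultured samples as 4 groups with the FS lines apart, the stage comparison the 9 epiblasts, and comparisons of a culture with epiblasts all 21 samples. Levels are CPM of all counts in the table. Bounds use 3 counts per library, and intervals are exact 95% intervals of a ratio of counts, for counting error only. Of the 50 members 47 passed the filter on low counts in cultured fits and 41 in the epiblast fit, and a member can pass through the group where it is high.

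By the rule for named genes, members past the threshold in at least 1 comparison with a group mean of at least 5 CPM are given in every cultured sample, with epiblasts by range and median, and other members by range or mean. Some members below that mean, such as Airn, are also given by sample, as chosen after their values were seen. Alternatives were DESeq2 1.42.0 and its size factors, no filter on low counts, genes with a mean of 5 CPM or more, no ribosomal RNA-like loci, each library left out, only the groups compared, both FS lines in 1 group, E5.5 or E6.0 epiblasts alone as reference and a replicate block. The fit without the E5.0 epiblasts was added after seeing the data. The test was checked on simulated counts drawn independently for each library, which cannot show how far passages of the same cells depend on each other.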

Additional observations from a re-analysis of the deposited data

How the results depend on the processing

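Of 187 calls of single members, 106 were kept under every alternative, 81 were lost under at least 1, and 3 turned in sign there: Slc22a18 in AFX against the E5.5 epiblasts alone (-0.20), and Magel2 in FS1 (-0.55) and FS2 (-0.061) against the E6.0 epiblasts alone. For FS2 vs FS1 the members called came to 11 with no filter and to 3 to 5 with 1 library left out, and all genes called to 1099 with DESeq2, 1298 with no filter, 1045 with only the groups compared and 316 to 478 with 1 library left out. For AFX vs AF the members called came to 22 with no filter and 10 to 14 with 1 library left out, and all genes to 1175 with only the groups compared and 1187 to 1807 with 1 library left out. For FS vs AFX the ranges with 1 library left out were 10 to 14 members and 1356 to 1924 genes, and for E6.0 vs E5.0 they were 8 to 16 members and 1905 to 3362 genes. The cause of these moves was not tested. Apart from these and the replicate block, the counts stayed within 1.5 times their value.

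AF and AFX share passage numbers, but samples with the same number did not deviate together (correlations -0.137, -0.104 and 0.223), nor did embryos with the same number (-0.0693 to 0.127), so they are not taken as paired, and not every sample correlated best with its own number. With a replicate block, 10 members and 907 genes (1859 without it) were called for AFX vs AF, and 13 members and 2251 genes for E6.0 vs E5.0.

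Each group is 3 libraries of 1 line or stage, and members under about 1 CPM rest on few counts. Line, medium and passage history cannot be told apart between FS and EpiSC cultures.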
